A study of Mus musculus with 6 samples.

Results

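*Angptl1*, *Angptl2*, *Angptl4*, *Angptl6* and *Angptl7* are members of the angiopoietin-like gene family, and they are 5 of the 53657 gene names counted in sorted spermatogonia of 6 mice. They were taken by name from the count files. The family was chosen by the measured fall of *Angptl7*, whose counts in mutant against wild-type mice drew attention to it in earlier results on these data, so the values of *Angptl7* in that contrast are given as a description without a test. The 3 WT mice carried Gfra1-creERT2; tdTom fl/-, and the 3 MUT mice carried Gfra1-creERT2; tdTom fl/-; FR-Hras G12V fl/-, labelled as heterozygous for the mutation. All 6 were adults treated with tamoxifen, which activates Cre under the *Gfra1* promoter. Recombination turns on the red protein tdTomato in both groups, and in MUT mice it also swaps 1 wild-type *Hras* allele for the G12V allele at the endogenous locus. The controls therefore share the Cre, the reporter and the tamoxifen, and differ by the lack of the FR allele. Testes were dissociated 3 months after induction, and tdTomato+ cells bright for the surface protein MCAM were sorted, 1 library per mouse. The mice were of mixed background and the controls were littermates. MCAM is also found on somatic cells, which the tdTomato gate was meant to keep out, and the share of sorted cells that carried the mutation cannot be read from counts per gene and is not analysed here.

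Angiopoietin-like proteins are secreted glycoproteins built like the angiopoietins, with a coiled-coil region towards the N terminus and, in every member but *Angptl8*, a fibrinogen-like domain at the C terminus. Unlike the angiopoietins they are not ligands of the receptor Tie2, and several act outside blood vessels. *Angptl4* inhibits lipoprotein lipase, the enzyme that releases fatty acids from circulating triglyceride, whereas *Angptl2* acts on integrins and on paired immunoglobulin-like receptors, and *Angptl7* is best known from the eye. Undifferentiated spermatogonia, the cells sorted here, are the stem and progenitor cells of the male germ line.

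The members are related but their coding sequences are distinct. Translated from GENCODE transcripts, the proteins held 490 residues for *Angptl1*, 493 for *Angptl2*, 410 for *Angptl4*, 457 for *Angptl6* and 337 for *Angptl7*. Over 10 pairwise alignments the whole proteins shared between 30.1% and 60.5% of aligned residues, and their last 200 residues shared between 37.4% and 77.0%, with *Angptl1* and *Angptl2* the most alike on both measures. The longest run of coding bases that was identical between a pair of members was between 10 and 25 bases long, the longest being between *Angptl2* and *Angptl6*. The stretch below, 60 coding bases for 20 residues, was the window with the most residues shared by all 5 members. It was chosen by residues and not by bases, so pairs of members can share longer runs of bases elsewhere. Capitals mark the 32 bases that are the same in all 5 members, and each line runs 5′ to 3′ on the strand of the gene.
Angptl1: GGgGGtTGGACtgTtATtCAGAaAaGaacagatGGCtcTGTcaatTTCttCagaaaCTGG
Angptl2: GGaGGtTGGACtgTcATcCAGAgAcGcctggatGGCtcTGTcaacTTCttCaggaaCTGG
Angptl4: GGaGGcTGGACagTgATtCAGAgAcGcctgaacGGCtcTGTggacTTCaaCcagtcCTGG
Angptl6: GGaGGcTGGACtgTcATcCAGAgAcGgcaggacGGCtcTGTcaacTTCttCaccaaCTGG
Angptl7: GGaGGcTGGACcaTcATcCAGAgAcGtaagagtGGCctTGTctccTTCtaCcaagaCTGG
The sequences are reference sequence of GRCm38, and each lies within 1 coding exon. The *Angptl1* stretch is at chr1:156857205-156857264 on the plus strand in exon 3, and the *Angptl2* stretch is at chr2:33242322-33242381 on the plus strand in exon 3. The *Angptl4* stretch is at chr17:33777354-33777413 on the minus strand in exon 5, and the *Angptl6* stretch is at chr9:20875526-20875585 on the minus strand in exon 4. The *Angptl7* stretch is at chr4:148497391-148497450 on the minus strand in exon 3 and codes for residues 160 to 179. Even here *Angptl7* shared only 44 of 60 bases with *Angptl6*, 43 with *Angptl2*, 42 with *Angptl4* and 38 with *Angptl1*. The 5 genes therefore differ at many positions within the window where their proteins share the most residues.

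Each library held between 22729292 and 23550433 counted fragments, so depth differed little, and 3 counts, taken as the floor of detection, corresponded to between 0.127 and 0.132 CPM (counts scaled to library size). CPM values below are normalized by the TMM method of edgeR, and limits from counts cover counting error only. WT replicate 3 stood apart from the other WT mice, with a chi-square per degree of freedom of 24.5 and 18.2 against them where WT replicates 1 and 2 had 5.16. To a lesser degree MUT replicate 3 did so too, with 9.99 and 8.77 where MUT replicates 1 and 2 had 4.26. All 10 markers of undifferentiated spermatogonia and all 3 general germ line markers were detected in every library, with summed levels of 2057 to 2711 CPM and 1396 to 1555 CPM. Transcripts of other cell types were present too: the summed level of 9 macrophage markers ranged from 985 to 1579 CPM in WT and from 870 to 1094 CPM in MUT, and that of 6 Leydig markers was 66.8 CPM in MUT replicate 3 and between 13.0 and 20.8 CPM in the other 5 mice. Among 8 B and plasma cell markers the sum ran from 77.7 to 324 CPM in WT and from 27.3 to 89.5 CPM in MUT. The other marker sums overlapped widely between the groups, with Sertoli markers at 68.0 to 158 CPM, stromal fibroblast markers at 261 to 395 CPM, endothelial markers at 46.5 to 62.1 CPM and peritubular myoid markers at 19.6 to 33.2 CPM over the 6 mice. Adipocyte markers reached only 1.36 to 3.09 CPM, and the adipocyte marker *Cfd* had no count in any library.

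All 5 members had counts in every mouse at low to moderate levels, with *Angptl1* at the floor of 3 counts in MUT replicate 1. *Angptl7* alone differed by several fold between the genotypes. In CPM per kb of exon, which allows levels of different genes to be compared, *Angptl6* was highest at a mean of 5.36 over the 6 mice, followed by *Angptl4* at 3.73, *Angptl7* at 0.626, *Angptl2* at 0.203 and *Angptl1* at 0.0908. Among the 37285 genes with any count in any library, these levels placed *Angptl6* at percentile 77.0 and *Angptl4* at percentile 73.1. *Angptl7* was at 55.0, *Angptl2* at 41.0 and *Angptl1* at 30.3. That set includes genes below the floor of 3 counts. *Angptl6* exceeded *Angptl4* in 6 of 6 mice by a log2 ratio of 0.53 ± 0.16 (SD, n = 6), with a p of 0.03125 from an exact two-sided sign-flip permutation test, the smallest that 6 mice allow. Adjusted over all 4 pairs of neighbours this was 0.0417 in the exact permutation test, and adjusted over the 2 pairs without *Angptl7* it was 0.0625, which did not pass at 0.05. The pairs with *Angptl7* are described without a test, since its values chose the family. *Angptl4* exceeded *Angptl7* by a log2 ratio of 1.85 ± 0.28 among WT mice and 3.94 ± 0.67 among MUT mice (SD, n = 3 each). *Angptl2* exceeded *Angptl1* in 5 of 6 mice by 1.09 ± 0.72 (SD, n = 6) on the log2 scale, which did not pass at an exact permutation p of 0.0625. The log2 ratio of *Angptl7* to *Angptl2* was 2.34 ± 0.85 among WT mice and 0.32 ± 0.31 among MUT mice (SD, n = 3 each). With the longest exon in place of the summed exons as length, the log2 ratio of *Angptl6* to *Angptl4* rose from 0.53 to 1.19, so the size of that step depends on how length is counted.

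**Figure D1:**
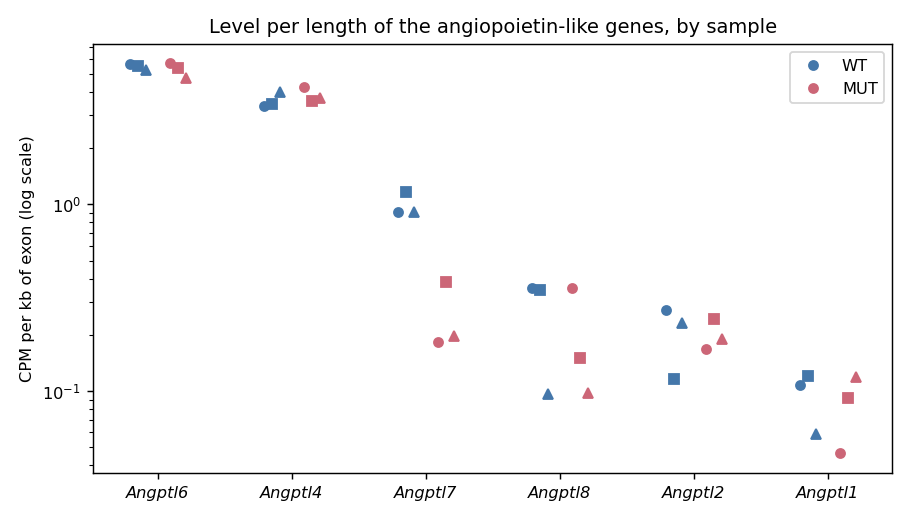
Level per length of the 5 members and *Angptl8* in each mouse, as TMM-normalized CPM per kb of exon on a log axis, with WT in blue and MUT in red and circles, squares and triangles for replicates 1, 2 and 3. *Angptl6* and *Angptl4* sit above the rest, the *Angptl7* points of MUT mice fall to the level of *Angptl2*, and *Angptl1* lies lowest by its mean.

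*Angptl7* lies on the minus strand at chr4:148495183-148500460 (GRCm38), with 5 exons that sum to 2157 bases. The libraries of WT replicates 1, 2 and 3 held 45, 59 and 47 *Angptl7* counts, against 9, 19 and 10 for MUT replicates 1, 2 and 3. Every WT library was above every MUT library, which describes the values that chose the gene. As normalized level the WT mean was 2.15 ± 0.32 CPM and the MUT mean 0.548 ± 0.241 CPM (SD, n = 3 mice each), 3.93-fold higher in WT. In bulk RNA of this kind, fewer cells that express the gene and less of its RNA in each cell cannot be told apart.

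The fitted log2 fold change of *Angptl7*, MUT against WT, was -1.97 (SE 0.317, 95% interval -2.69 to -1.24) in edgeR's quasi-likelihood fit. Because this contrast chose the gene, no test is read from it, and its calls are listed only to show how they vary with the method. The edgeR fit with an FDR of 0.1 called 2 of 19656 genes (0.0102%) and *Angptl7* was not among them. DESeq2 called 9 of 37271 genes (0.0241%) with *Angptl7* among them. With the replicate number as a block, *Angptl7* was among the 13 genes (0.0661%) called by edgeR and the 55 genes (0.323%) called by DESeq2. Of all genes tested, 598 (3.04%) were, like *Angptl7*, lower in every MUT mouse than in any WT mouse, and 1464 (7.45%) had groups without overlap in either direction. No other fit made with the same filter called *Angptl7*: it was not called by limma voom, with DESeq2 size factors or library totals in edgeR, or in any of the 6 edgeR fits that left out 1 mouse. Without the filter edgeR did not call it either, except with the block or with DESeq2 size factors. Leaving out 1 mouse at a time kept the fold change between -2.39 and -1.79, with -2.02 without WT replicate 3 and -1.81 without MUT replicate 3.

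**Figure D2:**
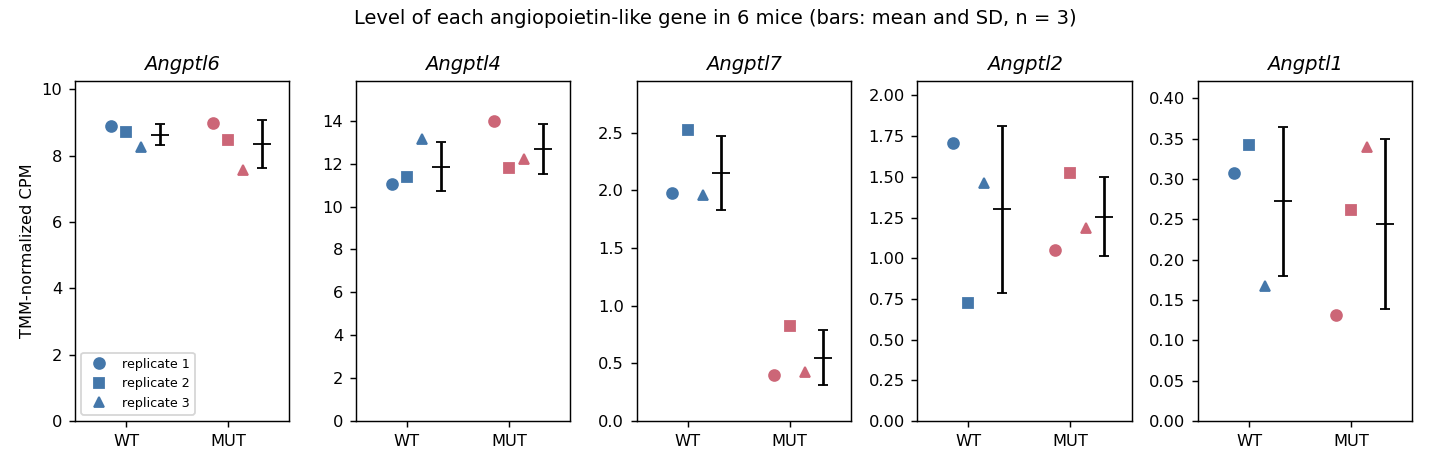
TMM-normalized CPM of each member in the 3 WT and 3 MUT mice, each panel on its own linear axis from 0, with 1 point per mouse and the mean and SD beside each group. The groups are apart in the panel for *Angptl7*, at 2.15 and 0.548 CPM, and overlap in the other 4 panels.

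*Angptl7* sits inside another gene. The whole of it lies within an intron of *Mtor*, which codes for the kinase of the growth-regulating mTOR complexes and runs on the opposite strand. In the *Mtor* transcript with 58 exons the intron is number 28, is 20004 bases long and leaves 3416 bases between *Angptl7* and the nearest *Mtor* exon. The libraries kept the strand but the counting did not use it, so fragments of unspliced *Mtor* RNA that fall on exons of *Angptl7* cannot be told apart from *Angptl7* fragments. The WT libraries, in the same order, held 10666, 10726 and 7497 *Mtor* counts and the MUT libraries 10970, 11061 and 10823. *Mtor* was thus lowest in WT replicate 3, where *Angptl7* was not low, and it had a log2 fold change of 0.20 (SE 0.139, 95% interval -0.12 to 0.51). Without WT replicate 3 the log2 fold change of *Mtor* was 0.04.

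Set against its host, *Angptl7* gave 4.22, 5.50 and 6.27 counts per 1000 *Mtor* counts in the WT mice and 0.820, 1.72 and 0.924 in the MUT mice. This ratio contains the *Angptl7* counts that chose the gene, so it is a description and not a separate observation. Its groups did not overlap, and its log2 ratio of MUT to WT was -2.22. Leaving out each mouse in turn moved that ratio between -2.54 and -2.02. The only other genes wholly inside *Mtor* introns were the small nuclear RNA genes *Gm24002*, with no count in any library, and *Gm23318*, which had between 9 and 20 counts per library on 108 bases of exon. No longer feature of those introns was counted apart from *Angptl7*, so the share of *Mtor* intron reads in the *Angptl7* counts was not tested.

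**Figure D3:**
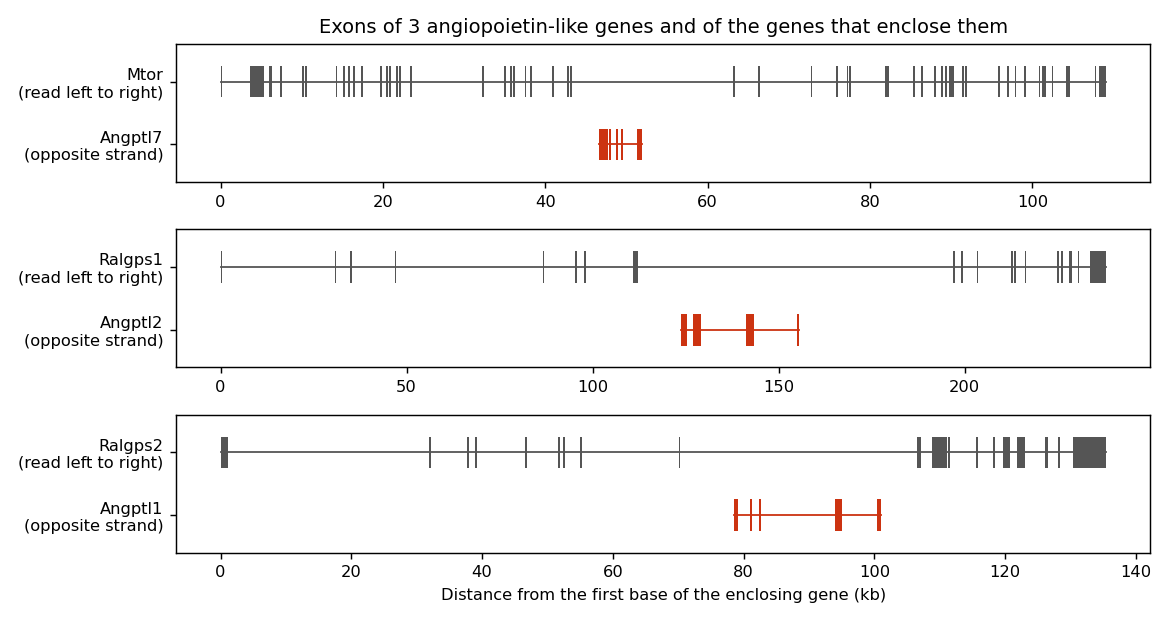
Exons of the 3 nested members (red) and of the genes that enclose them (grey), plotted by distance in kb from the first base of the enclosing gene, with exons drawn at a minimum width so that short ones show. Each member lies between exons of its host and shares no exon base with it.

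Of the 5 members, *Angptl1*, *Angptl2* and *Angptl7* (60.0%) lay within an intron of a gene on the opposite strand, and *Angptl8* lies in *Dock6* in the same way. Of 53652 gene names with a single place and strand, 9.11% were nested in this way. *Angptl2* lies within *Ralgps1* and *Angptl1* within *Ralgps2*, which are related genes coding for exchange factors that activate Ral GTPases. As for *Angptl7*, fragments of unspliced host RNA on exons of *Angptl2* or *Angptl1* cannot be told apart from their own. Their share was not tested. Per kb of exon, *Angptl7* averaged 14.6 counts per library, *Angptl2* 4.72 and *Angptl1* 2.11. The other gene names inside introns of the same hosts varied widely on this measure, from 0 for *Gm24002* to 117 for *Gm23318* in *Mtor*, from 0 to 3.65 in *Ralgps1* and from 0.592 to 1.14 in *Ralgps2*.

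*Angptl4*, the lipoprotein lipase inhibitor induced by fasting, PPAR factors and low oxygen, lies on the minus strand at chr17:33773750-33781575 and overlaps no other gene. It had 252, 266 and 315 counts in WT and 319, 271 and 288 counts in MUT, the most of any member. The groups overlapped, with a WT mean of 11.9 ± 1.14 CPM and a MUT mean of 12.7 ± 1.17 CPM (SD, n = 3 mice each). Its log2 fold change was 0.09 (SE 0.131, 95% interval -0.21 to 0.39, Benjamini-Hochberg adjusted p = 0.998 in the edgeR fit). An interval of this width leaves room for changes of up to 0.39 in log2 terms but not for one of the size seen for *Angptl7*.

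*Angptl6*, a circulating factor also called angiopoietin-related growth factor, lies on the minus strand at chr9:20873808-20879727. Its counts were 203, 204 and 198 in WT and 205, 195 and 178 in MUT, so it was the steadiest member, with a coefficient of variation over the 6 mice of 6.25%. The WT mean was 8.63 ± 0.33 CPM and the MUT mean 8.34 ± 0.73 CPM (SD, n = 3 mice each). The log2 fold change was -0.05 (SE 0.131, 95% interval -0.35 to 0.25, adjusted p = 0.998 by the same edgeR test). *Angptl6* shared 265 exon bases with *RP23-349D13.3*, a gene on the plus strand with between 464 and 641 counts per library, and fragments on the shared bases were left out as ambiguous, so *Angptl6* can be undercounted.

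*Angptl2*, a secreted protein known from inflamed and adipose tissue, lies on the plus strand at chr2:33216069-33247717, within intron 8 of a 20-exon *Ralgps1* transcript. It had 39, 17 and 35 counts in WT and 24, 35 and 28 counts in MUT. The lowest and the highest count both came from WT mice, and the MUT mice lay between them. The WT mean was 1.30 ± 0.51 CPM and the MUT mean 1.25 ± 0.24 CPM (SD, n = 3 mice each), with a log2 fold change of -0.05 (SE 0.337, 95% interval -0.82 to 0.72, adjusted p = 0.998 by the same edgeR test). Per 1000 counts of *Ralgps1* it gave 31.1, 12.8 and 32.4 in WT and 18.4, 26.7 and 19.4 in MUT, and these too overlapped. At counts this low the interval takes in rises and falls of similar size.

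*Angptl1*, known as an inhibitor of vessel growth, lies on the plus strand at chr1:156838562-156861078, within intron 8 of a 20-exon *Ralgps2* transcript. It was the scarcest member, with 7, 8 and 4 counts in WT and 3, 6 and 8 counts in MUT. All 6 values were at or above the floor of 3 counts, but with 36 counts in all the gene did not pass edgeR's filter on low counts, which the other 4 members passed. In a fit without the filter its log2 fold change was -0.15 (SE 0.557, 95% interval -1.33 to 1.04, adjusted p = 0.998 in edgeR's quasi-likelihood test), an interval that takes in falls of up to 1.33 and rises of up to 1.04 on the log2 scale. Per 1000 counts of *Ralgps2* it gave between 1.35 and 2.62 in WT and between 0.978 and 2.57 in MUT. It shared 465 exon bases with *RP24-444I15.1*, a feature on the minus strand with 1 to 5 counts per library, and the conserved stretch printed above lies in that shared sequence, where fragments of either gene went uncounted.

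**Figure D4:**
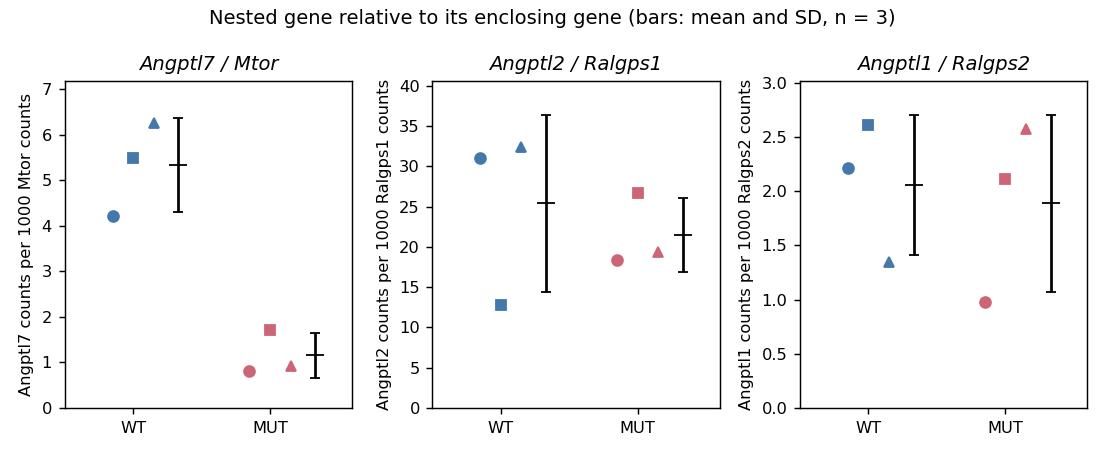
Counts of each nested member per 1000 counts of the gene that encloses it, for *Angptl7* in *Mtor*, *Angptl2* in *Ralgps1* and *Angptl1* in *Ralgps2*, with 1 point per mouse, linear axes from 0, and the mean and SD beside each group. The WT mice lie between 4.22 and 6.27 and the MUT mice between 0.820 and 1.72 for *Angptl7*, while the groups overlap for the other 2 members.

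The spread among the 3 mice of a group differed between members. Relative to the mean count after scaling to equal depth, the within-group variance was 0.443 for *Angptl6*, 0.877 for *Angptl1*, 1.67 for *Angptl7*, 2.92 for *Angptl2* and 3.47 for *Angptl4*, where counting error alone would give values near 1 on average. For the far more abundant *Mtor* it was 153. With 3 mice per group these estimates are themselves imprecise. Over all 6 mice the coefficient of variation was 9.14% for *Angptl4*, 28.1% for *Angptl2*, 34.8% for *Angptl1* and 67.7% for *Angptl7*, and the last of these contains the difference between the genotypes.

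Related genes were also counted at low levels. *Angptl8*, which lacks the fibrinogen-like domain, had 7, 7 and 2 counts in WT and 7, 3 and 2 counts in MUT, and *Angpt4* had between 0 and 3 counts per library. Of the angiopoietins proper, the Tie2 agonist *Angpt1* had 20, 33 and 36 counts in WT and 38, 27 and 27 in MUT. *Angpt2*, which competes with it at the receptor, had 55, 44 and 29 counts in WT and 44, 54 and 59 in MUT. The groups overlapped for both, with log2 fold changes of 0.06 (SE 0.290) for *Angpt1* and 0.30 (SE 0.272) for *Angpt2*, each at an adjusted p of 0.998 in the edgeR fit. *Angpt2* is a further nested gene, within *Mcph1* on the opposite strand.

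Receptors, lipases, regulators and their targets, and other genes with a fibrinogen-like domain, were measured from 6 lists. None of the 50 that passed the filter, of 57 listed, was called higher or lower in MUT by edgeR. Over all genes, edgeR called 2 of 19656. An unadjusted p under 0.05 was reached by 3 of the 50, beside 547 of 19656 genes in all. Their median log2 fold change was 0.04 beside 0.01 over all genes tested. In MUT 3 of the 50 were higher and 4 lower without overlap between the groups, beside 7.45% of all genes in either direction. DESeq2 and the fits with a replicate block also called none of them.

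Among 10 receptors and binding partners, the integrin subunit gene *Itgb1* and the syndecan gene *Sdc4* had the highest levels. *Itgb1* had means of 225 ± 5.61 CPM among WT and 227 ± 13.3 CPM among MUT mice (SD, n = 3 each), and *Sdc4* at 558 ± 48.9 and 557 ± 80.6 CPM (SD, n = 3 each). Of the 10, 2 genes were lower in MUT without overlap, beside 3.04% of all genes, and none was higher without overlap. The groups overlapped for both named genes.

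Among 10 genes for lipases and their handling, 8 passed the filter. *Sel1l*, which is needed for lipase folding in the endoplasmic reticulum, had means of 143 ± 11.6 CPM among WT and 151 ± 5.50 CPM among MUT mice (SD, n = 3 each), and the proprotein convertase *Furin*, which cleaves several angiopoietin-like proteins, at 84.9 ± 9.93 and 91.9 ± 4.99 CPM. *Lpl*, the lipase itself, had 331, 232 and 530 counts in WT and 186, 195 and 236 counts in MUT, and it is named after its values were seen. These groups touched at 232 and 236 counts, and the log2 fold change of -0.81 (SE 0.268) had an unadjusted p of 0.0155 and an adjusted p of 0.998 in edgeR. The highest *Lpl* count was in WT replicate 3, the library with the highest macrophage marker sum, a cell type that also expresses *Lpl*, and the part of such cells in it was not tested.

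All 6 PPAR and glucocorticoid factors and all 8 PPAR target genes passed the filter. The retinoid X receptors *Rxra* and *Rxrb*, partners of the PPARs, had log2 fold changes of 0.12 (SE 0.112) and 0.06 (SE 0.064). The fatty acid oxidation genes *Cpt1a* and *Acadm* each had 0.06, with SE of 0.081 and 0.061. *Fabp4*, a fatty acid carrier of fat cells, macrophages and vessel walls, had 10, 12 and 13 counts in WT and 6, 3 and 8 counts in MUT. Its groups did not overlap, and its log2 fold change of -1.01 (SE 0.410) had an unadjusted p of 0.0371 but an adjusted p of 0.998 in edgeR.

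Of 10 hypoxia factors and targets, 9 passed the filter, with log2 fold changes from -0.08 to 0.10. The kinase gene *Pdk1* had the lowest of them, and the glucose transporter gene *Slc2a1* had 0.08 (95% interval -0.15 to 0.31). Of 13 other genes for proteins with a fibrinogen-like domain, 9 passed. *Tnxb*, which codes for the matrix protein tenascin-X, had 109, 83 and 66 counts in WT and 114, 134 and 135 counts in MUT. Its groups did not overlap, with a log2 fold change of 0.58 (SE 0.216), an unadjusted p of 0.0268 and an adjusted p of 0.998 in edgeR. The most abundant of this list per length, *Fgl2* and *Fibcd1*, had log2 fold changes of -0.24 (SE 0.155) and 0.16 (SE 0.199).

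**Figure D5:**
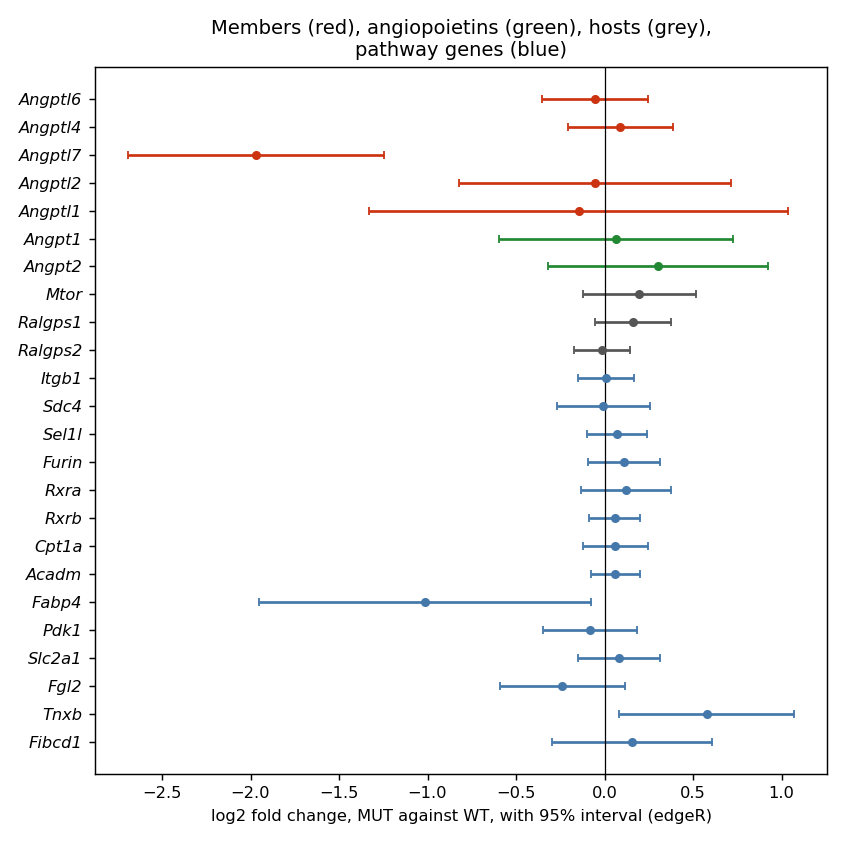
Log2 fold change, MUT against WT, with its 95% interval from edgeR for the 5 members (red, *Angptl1* from the fit without a filter), *Angpt1* and *Angpt2* (green), 3 enclosing genes (grey) and the pathway genes named in the text except *Lpl* (blue). The interval of *Angptl7*, from -2.69 to -1.24, reaches furthest left, and only *Fabp4* and *Tnxb* among the rest have intervals that leave out 0.

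The genes whose log2 CPM followed each member most closely over the 6 mice were listed as a description, from 16665 genes (16666 for *Angptl1*) with a mean of at least 1 CPM. Since r is taken over only 6 mice, many genes reach high values, and the points share depth and genotype. For *Angptl7* the 5 highest were *RP23-82C19.2* (r = 0.996), *Aph1a* (0.971), *Ccnb1ip1* (0.971), *Rsl1* (0.969) and the immunoglobulin gene *Igkv4-91* (0.968), and 43 genes had an r above 0.9. *Igkv4-91* had between 2.54 and 2.97 CPM in WT and between 0 and 0.0435 CPM in MUT, and it was 1 of the 2 genes that edgeR called. *Aph1a*, by contrast, spanned only 14.7 to 15.7 CPM over the 6 mice, so a likeness of pattern went with very different sizes of change.

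Markers of B and plasma cells are given beside *Angptl7* because their sums, at 77.7 to 324 CPM in WT and 27.3 to 89.5 CPM in MUT, overlapped only at their ends. Of those 8 markers, 1 was lower and 1 higher in MUT without overlap, beside 3.04% of all genes lower and 7.45% in either direction, and 5 had an unadjusted p under 0.05, as did 547 of all 19656 genes. *Jchain*, a plasma cell gene, had 280, 996 and 1651 counts in WT and 68, 34 and 345 counts in MUT. Within the WT group *Jchain* ranged from 280 to 1651 counts while *Angptl7* ranged from 45 to 59, and the WT mouse with the least *Jchain* had 45 *Angptl7* counts, more than any MUT mouse. MUT replicate 3, with 345 *Jchain* counts, had more *Jchain* than that mouse and 10 *Angptl7* counts. Whether cells of that kind contributed to the *Angptl7* counts was not tested.

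The nearest patterns to the other members were *Dnah9* (r = 0.997) and *Ikbkb* (0.996) for *Angptl1*, *Cxx1a* (0.988) and *RP23-184H3.5* (0.985) for *Angptl2*, *RP23-392C8.4* (0.983) and *Surf1* (0.981) for *Angptl4*, and *S1pr2* (0.986) and *Tcaf2* (0.986) for *Angptl6*. No gene appeared in more than 1 of these lists. An r above 0.9 was reached by 51 genes for *Angptl1*, 37 for *Angptl2*, 85 for *Angptl4* and 118 for *Angptl6*.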

How the data were processed

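RNA of sorted cells from 3 WT and 3 MUT mice was measured by stranded, paired-end mRNA sequencing. Per the file headers and the labels, the authors counted fragments per gene name with featureCounts 1.6.2 on GENCODE vM17 with tdTomato added, after alignment with STAR to GRCm38.p6 (STAR version not given in the sources used here). The deposited counts are raw, one file per mouse, with no strand option and without ambiguous or multi-mapping fragments, which can undercount overlapping genes. Groups and replicate numbers came from the sample titles.

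The counts were joined over 53657 gene names. In R 4.3.3, edgeR 4.0.16 kept 19656 genes with filterByExpr, normalized by TMM and tested MUT against WT by quasi-likelihood, with no covariate and at a Benjamini-Hochberg FDR of 0.1. Alternatives were DESeq2 (version 1.42.0 here), limma voom (limma 3.58.1) and a block for the replicate number. Other scalings and filters, an FDR of 0.05 and each mouse left out in turn were also tried. The study itself used DESeq2. The p-values measure the spread between 3 mice per group. Same-numbered mice deviated together from their group means, with correlations of 0.30, 0.16 and 0.39 over 10580 genes above 10 CPM. The numbers come from the titles and were taken to pair the samples, though the study does not say which mice were littermates of each other. Correlations between differently numbered mice were not computed, so the pairing is an assumption. The blocked fit is given where it changes a call.

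Levels between genes were compared per kb of summed exon length, within each mouse, with 0.5 counts added, by an exact sign-flip permutation test. Log2 CPM for likeness of pattern used a prior count of 2. No protein table was used; proteins were translated from GENCODE vM21 coding sequence of the same build, aligned in pairs (BLOSUM62, Biopython 1.88), and the conserved stretch was found with MAFFT 7.526. Exons of 4 of the 5 members were the same in vM21 as in the files, and those of Angptl4 differed. The test scripts were tested on simulated data.

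The members and all gene lists were chosen with earlier results of these data known. Genes were named by rule: the members, related family genes (some results are not reported here), enclosing and overlapping genes, from each list the 2 genes with the highest level per length plus any called or any without overlap at an unadjusted p under 0.05, the 5 genes most like Angptl7 and the 2 most like each other member. Lpl, Jchain and Cfd are named in addition.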

Additional observations from a re-analysis of the deposited data

How the results depend on the processing

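The number of genes called between MUT and WT was 2 in the edgeR fit and stayed at 2 with DESeq2 size factors or library totals. It was 5 without a filter, 4 with limma voom, 9 with DESeq2, 1 at an FDR of 0.05, and 0 where every sample needed at least 10 counts (479 genes at an unadjusted p under 0.05). With the replicate number as a block, which assumes that same-numbered mice form pairs, it was 13 in edgeR and 55 in DESeq2. Leaving out 1 mouse gave between 0 and 6 genes in edgeR: 6 without MUT replicate 3, 5 without WT replicate 3, 1 without MUT replicate 1, and 0 without MUT replicate 2, where 292 genes reached an unadjusted p under 0.05. The block changed the call of Angptl7 and of no other member. Angptl7 was not fitted where 10 counts were required in every sample, and over the other settings its log2 fold change lay between -2.39 and -1.79. The sign of the small fold changes was not stable: Angptl2 gave 0.019 with limma voom and between -0.35 and 0.18 with a mouse left out, Angptl1 between -0.45 and 0.14, with 0.054 without WT replicate 2, and Angptl6 between -0.11 and 0.011, the latter without MUT replicate 3, and none of these was called under any setting. Angptl4 kept its sign, from 0.01 to 0.18. No pathway gene was called under any of the 15 settings. The log2 ratio of Angptl6 to Angptl4, 0.53, had an adjusted p of 0.0417 over 4 pairs in the exact permutation test and of 0.0625 over the 2 pairs without Angptl7, an adjustment chosen after seeing the data; the ratio was 1.19 with the longest exon as length. Among these results the cause of each change was not tested. Angptl1 had 8 counts or fewer in every library.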
